A study of Rattus norvegicus with 12 samples.

Results

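Oxygen sensing was followed in rat PAC1 cells through the mRNAs of 10 genes of the hypoxia pathway, out of 33294 genes in the count table. The genes were taken by name: the subunits Hif1a and Epas1, the prolyl hydroxylases Egln1, Egln2 and Egln3, the ubiquitin ligase receptor Vhl, and the target genes Vegfa, Bnip3, Ankrd37 and Car9, which the table lists under its older symbol Ca9. Egln3 was included because it was silent in D1, so its D1 values chose it and it is described here without a test. The other 9 were named for their place in the pathway, although earlier results of these data were known when they were chosen. PAC1 is an established line of pulmonary artery smooth muscle cells, and poly(A) RNA was sequenced from 12 libraries in 4 groups of 3. D1 was the differentiated state (PAC1-D, split at 1:10 and 1 time per week) with control siRNA. P was the proliferative state (PAC1-P, split at 1:20 and 2 times per week) with the same control siRNA. RBPMS KD1 was PAC1-D with siRNA against Rbpms, and MBNL KD was PAC1-D with siRNAs against both Mbnl1 and Mbnl2, although its sample titles name only MBNL1. All cells grew with fetal bovine serum and received 90 pmol of siRNA. By the labels 200000 cells were plated per well, transfected again after 24 h and assessed 48 h later. The methods give other intervals and other cell numbers, with fewer PAC1-P than PAC1-D cells per well. The culture schedule, the plating density given in the methods and the cell state cannot be told apart in P. The oxygen level of the cultures is not given in the sources used here.

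Hypoxia-inducible factors (HIF) are transcription factors made of an oxygen-labile alpha subunit, encoded by Hif1a or Epas1, and a stable partner encoded by Arnt. In the presence of oxygen the EGLN enzymes hydroxylate prolines of the alpha subunit, VHL then recognises the hydroxylated protein, and the proteasome degrades it. When oxygen falls the alpha subunits escape this, enter the nucleus and switch on genes of glycolysis, angiogenesis and mitophagy, which include some of their own inhibitors. In vascular smooth muscle the pathway is known for its part in pulmonary vascular remodelling. Because this control acts mainly on protein, mRNA levels do not show how much HIF protein the cells held.

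HIF binds DNA at short elements whose core is ACGTG or GCGTG, and these letters were searched on both strands of the RefSeq promoter windows (GRCr8, 250 bases before to 50 after the annotated start), in which all 10 genes had an entry and Vegfa had 2. Of 33469 windows in the whole table, 19.3% held ACGTG, 29.7% held GCGTG and 41.6% held either. Among the 10 genes, 5 held a match: Hif1a at 3 places, Egln1 at 2, Bnip3 at 4, Ankrd37 at 5 and Car9 at 1, where the palindrome CACGTG counts as 2 adjacent places. No window of Epas1, Egln2, Egln3, Vhl or Vegfa held these letters. The stretches below belong to the genes with the largest rises in P, Egln3 and Car9, and to those with the most matches, Bnip3 and Ankrd37. They are written 5′ to 3′ along the gene's own strand, as the bases up to the start, or for Car9 as 30 bases across it, and capitals mark the matches. The last match of Ankrd37 runs past the end of the stretch shown, and GRCr8 is not the build on which the counts were made.
Bnip3 (chr1:203154963-203155212, minus strand): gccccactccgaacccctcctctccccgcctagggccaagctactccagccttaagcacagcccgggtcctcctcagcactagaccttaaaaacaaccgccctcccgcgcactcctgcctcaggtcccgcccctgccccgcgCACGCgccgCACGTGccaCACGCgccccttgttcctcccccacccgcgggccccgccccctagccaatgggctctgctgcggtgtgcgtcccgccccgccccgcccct
Ankrd37 (chr16:53001257-53001506, plus strand): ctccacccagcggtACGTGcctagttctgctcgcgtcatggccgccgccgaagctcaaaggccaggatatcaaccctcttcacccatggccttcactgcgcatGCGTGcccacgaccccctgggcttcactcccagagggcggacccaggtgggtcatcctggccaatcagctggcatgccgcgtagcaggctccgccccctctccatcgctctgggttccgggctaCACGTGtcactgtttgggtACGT
Car9 (chr5:62559013-62559042, plus strand): ttatttccgatgCACGTacagcccgtccac
Egln3 (chr6:77411016-77411265, minus strand): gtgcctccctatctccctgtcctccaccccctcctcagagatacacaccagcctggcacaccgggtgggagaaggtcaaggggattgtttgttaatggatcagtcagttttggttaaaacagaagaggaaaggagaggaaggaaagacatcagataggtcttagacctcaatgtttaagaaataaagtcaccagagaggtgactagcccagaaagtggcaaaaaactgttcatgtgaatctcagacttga

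The libraries held between 80842635 and 90771289 counts, and values are given as counts per 1000000 counts after scaling by TMM factors (CPM), with the standard deviation over 3 libraries. A gene with at most 3 counts in a library counts as not detected there, a limit of between 0.0319 and 0.0370 CPM. The siRNA targets fell in their own groups, Rbpms from 150 ± 7.90 CPM in D1 to 37.5 ± 0.703 in RBPMS KD1, Mbnl1 from 347 ± 5.15 to 82.5 ± 1.07 and Mbnl2 from 180 ± 1.94 to 53.4 ± 0.923 in MBNL KD (SD, n = 3). All 8 smooth muscle markers checked were detected in every library, and their summed level was 211 to 224 CPM in P, far under the 9803 to 10304 CPM of D1, with 7828 to 7944 in MBNL KD and 4886 to 5060 in RBPMS KD1. Markers of other cell types also differed in P. The 6 endothelial markers summed to between 5.49 and 6.82 CPM in P, 0.755 and 0.816 in D1, 0.937 and 1.44 in MBNL KD, and 1.82 and 1.86 in RBPMS KD1, with Cdh5 and Kdr at 0 counts in every library outside P. The 5 epithelial markers, mostly Krt8, summed to between 80.3 and 83.3 CPM in P, 35.5 and 37.3 in D1, 53.7 and 54.6 in MBNL KD, and 38.8 and 41.4 in RBPMS KD1, and the 5 leukocyte markers to at most 1.49 CPM in any library. The part of these markers in the results on P was not tested, and in bulk RNA fewer cells of a type and less RNA per cell cannot be told apart.

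The alpha subunits moved in opposite directions between the cell states. Hif1a, the widely expressed alpha subunit, had 120, 120 and 121 CPM in D1 and 243, 254 and 247 CPM in P. It was thus 2.05-fold higher in all 3 P libraries than in D1 (log2 fold change 1.03, SE 0.026, adjusted p = 2.3e-27). This and every adjusted p below come from the quasi-likelihood test of edgeR, adjusted by Benjamini and Hochberg's method over all genes tested, and the fold threshold referred to is an absolute log2 fold change of 1. In the knockdowns Hif1a stayed near D1, at 101.3, 105.7 and 107.4 CPM in RBPMS KD1 and at 133, 132 and 130 CPM in MBNL KD. Neither group overlapped D1, and the differences were small, a fall by 0.20 on the log2 scale in RBPMS KD1 (adjusted p = 3.1e-07) and a rise of 0.12 in MBNL KD (adjusted p = 1.7e-05). A lncRNA gene, LOC120103553, which overlaps Hif1a in the RefSeq table, lay between 2.33 and 7.38 CPM, and reads in the shared stretch could belong to either.

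Epas1, which encodes HIF-2 alpha, the subunit known best from vessels and lung, fell in every group relative to D1. Its D1 libraries had 35.6, 36.7 and 34.6 CPM, the RBPMS KD1 libraries 26.0, 25.4 and 25.0, the MBNL KD libraries 14.1, 14.2 and 14.0 and the P libraries 5.58, 4.47 and 5.18. The groups did not overlap, and each step of this order passed the test between neighbours, with adjusted p-values of 2.3e-11, 5.2e-16 and 4.0e-18. P held 14.3% of the D1 mean (log2 fold change -2.82, SE 0.059, adjusted p = 1.6e-29), MBNL KD 39.6% (-1.33, SE 0.044, adjusted p = 1.7e-21) and RBPMS KD1 71.5% (-0.48, SE 0.040, adjusted p = 2.3e-11). Epas1 was the 1 gene of the 9 past the fold threshold in MBNL KD. All 3 comparisons share the D1 libraries, and the direct comparison of MBNL KD with RBPMS KD1, which does not use them, gave a log2 fold change of -0.86 (SE 0.048).

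**Figure D1:**
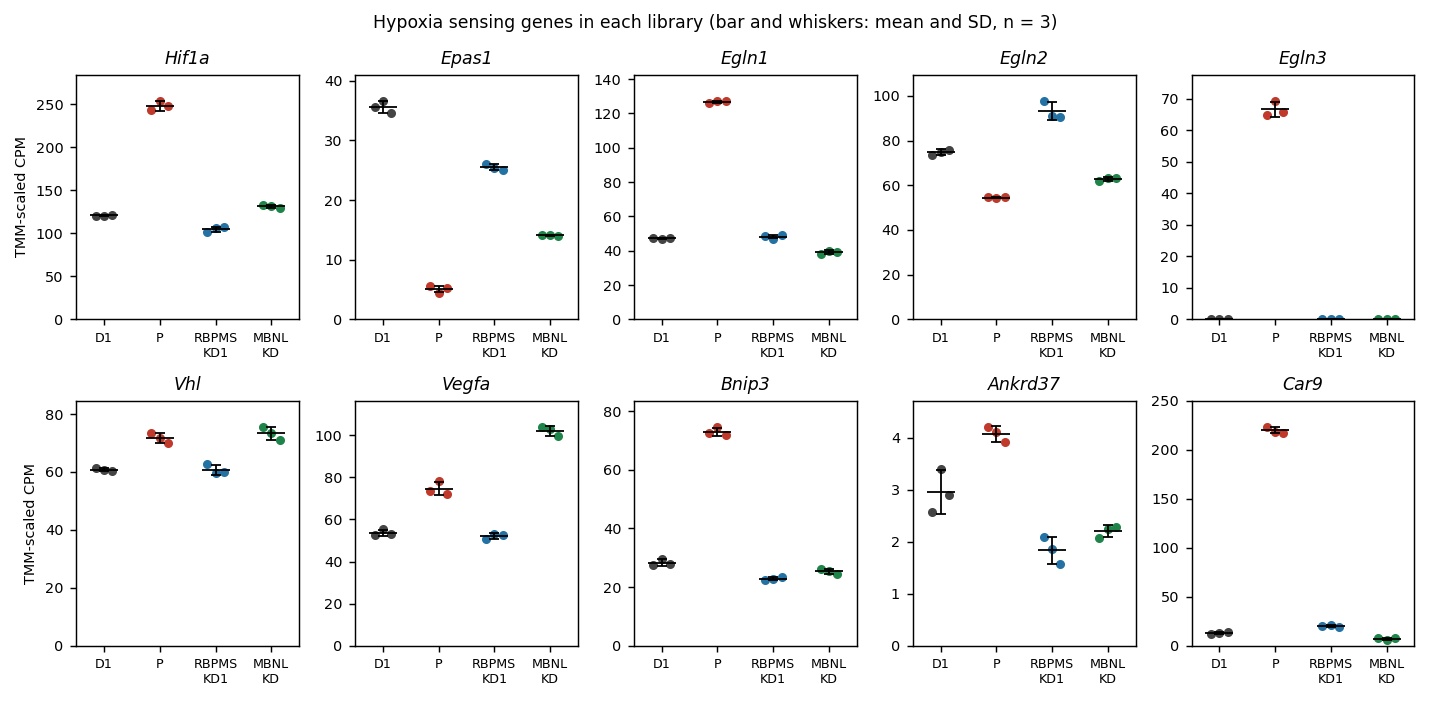
Level of each gene in TMM-scaled CPM (y axes, each from 0 and on its own scale) in the 12 libraries, by group on the x axis, where points are libraries and bars with whiskers are the mean and SD over 3. Hif1a, Egln1, Egln3, Bnip3 and Car9 stand high in P, Epas1 steps down from D1 to P through both knockdowns, and Vegfa is highest in MBNL KD at 102 CPM.

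The prolyl hydroxylases differed from each other. Egln1, the main HIF prolyl hydroxylase of most cells, had 47.4, 46.9 and 47.3 CPM in D1 and 126, 127 and 127 CPM in P. The P libraries lay far above the others, a log2 fold change of 1.42 over D1 (SE 0.028, adjusted p = 3.5e-30). In RBPMS KD1 Egln1 had 48.6, 47.1 and 49.0 CPM, which overlapped D1 (log2 fold change 0.032, 95% interval -0.037 to 0.10, adjusted p = 0.43). In MBNL KD it had 37.9, 40.1 and 39.2 CPM, all under D1, and fell by 0.27 on the log2 scale (adjusted p = 3.6e-08).

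Egln2, a hydroxylase of the same family that is not known as a hypoxia-induced gene, ran the other way. It had 73.4, 75.0 and 75.9 CPM in D1 and 54.7, 54.3 and 54.6 CPM in P, so that it was lower in all 3 P libraries (log2 fold change -0.46, SE 0.030, adjusted p = 1.5e-15). RBPMS KD1 had the highest level, with 97.8, 90.9 and 90.8 CPM, a rise of 0.32 on the log2 scale (adjusted p = 8.6e-10). MBNL KD, with 62.0, 63.2 and 63.4 CPM, lay between D1 and P and fell by 0.25 (adjusted p = 4.6e-09). All neighbours in the order RBPMS KD1, D1, MBNL KD, P passed the test, and the direct comparison of MBNL KD with RBPMS KD1 gave a log2 fold change of -0.57 (SE 0.031, adjusted p = 2.5e-16). The overlapping gene Cyp2t1 had at most 0.342 CPM in any library.

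Egln3, first cloned from rat smooth muscle cells as SM-20 and elsewhere a strongly hypoxia-induced hydroxylase, was detected in P and at or under 3 counts in every other library. Its counts were 6119, 6503 and 6161 in P, against 0, 0 and 2 in D1, 2, 2 and 0 in MBNL KD, and 0 in all 3 libraries of RBPMS KD1. The P libraries thus had 66.7 ± 2.34 CPM (SD, n = 3), and no order can be given among the other 3 groups. Among counts up to 20 in these libraries, even values were between 2.06 and 2.36 times as frequent as odd ones, and whether both mates of a pair were counted is not given in the sources used here. Against RBPMS KD1, P was at least 1952-fold higher, taking the limit of 3 counts per library for RBPMS KD1. The promoter window of Egln3 shown above held no match to the HIF core letters, which says nothing on elements elsewhere.

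Vhl, which recognises hydroxylated alpha subunits for degradation, varied least of the 10 genes. It had 61.3, 60.5 and 60.5 CPM in D1 and 62.7, 59.6 and 60.0 CPM in RBPMS KD1. These groups overlapped, with a log2 fold change of 0.0019 (95% interval -0.063 to 0.067, adjusted p = 0.96), and the sign of this value changed in 4 alternative fits. P, with 73.3, 71.7 and 70.1 CPM, and MBNL KD, with 75.5, 73.3 and 71.1 CPM, both lay above D1. The log2 fold changes were 0.23 in P (SE 0.030, adjusted p = 1.8e-08) and 0.27 in MBNL KD (SE 0.029, adjusted p = 1.6e-09). P and MBNL KD overlapped, and their difference of -0.067 (adjusted p = 0.041) lost the call in 8 alternatives, among them those without P replicate 3, MBNL KD replicate 1 or MBNL KD replicate 2 (adjusted p = 0.12, 0.20 and 0.075).

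All 4 target genes passed the test as higher in P than in D1, as did 40.4% of all genes tested, by very different amounts. Ankrd37 did not pass under every alternative. Car9, a membrane carbonic anhydrase that acidifies the space around hypoxic cells and is widely used as a readout of HIF activity, had 11.6, 12.9 and 14.1 CPM in D1 and 223, 219 and 217 CPM in P. It was 17.0-fold higher (log2 fold change 4.09, SE 0.039, adjusted p = 4.7e-39). The knockdowns parted here. RBPMS KD1, with 19.8, 21.3 and 19.1 CPM, lay above every D1 library (log2 fold change 0.64, SE 0.060, adjusted p = 2.5e-10), and MBNL KD, with 7.43, 6.07 and 7.40 CPM, lay under every D1 library (-0.88, SE 0.077, adjusted p = 2.1e-11). Compared directly, MBNL KD was 2.89-fold lower than RBPMS KD1 (log2 fold change -1.53, SE 0.068, adjusted p = 1.8e-18), and P was still 10.7-fold above RBPMS KD1 (adjusted p = 3.8e-39).

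Bnip3, a mitochondrial outer membrane protein that marks mitochondria for mitophagy, had 27.6, 29.6 and 27.7 CPM in D1 and 72.4, 74.5 and 71.7 CPM in P. The P libraries were 2.57-fold higher (log2 fold change 1.36, SE 0.035, adjusted p = 9.9e-27). Both knockdowns lay a little under D1, at 22.5, 22.8 and 23.4 CPM in RBPMS KD1 and 26.1, 25.5 and 24.5 CPM in MBNL KD. The fall in RBPMS KD1 was 0.30 on the log2 scale (adjusted p = 6.6e-07). In MBNL KD the log2 fold change was -0.16 (adjusted p = 0.0020), and the call was lost with quantile normalization (-0.079, adjusted p = 0.12) and in limma on the authors' normalised values (-0.077, adjusted p = 0.14).

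Vegfa, the growth factor that draws new vessels, was highest in MBNL KD rather than in P. Its libraries had 52.7, 55.2 and 53.0 CPM in D1, 73.7, 78.1 and 72.1 in P and 104, 103 and 99.5 in MBNL KD. MBNL KD was 1.90-fold above D1 (log2 fold change 0.93, SE 0.028, adjusted p = 3.0e-22), just short of the fold threshold, which it passed with quantile normalization at 1.01. P was 1.39-fold above D1 (log2 fold change 0.47, SE 0.033, adjusted p = 1.3e-14) and lower than MBNL KD by 0.49 (adjusted p = 2.3e-15). RBPMS KD1 had 50.5, 53.3 and 52.4 CPM and overlapped D1 (log2 fold change -0.042, 95% interval -0.11 to 0.028, adjusted p = 0.30). The counts sum over all Vegfa isoforms.

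Ankrd37, a small ankyrin repeat protein known as a hypoxia-induced gene, had the fewest counts of the genes detected in all groups, between 139 and 396 per library. Its level was 2.57, 3.40 and 2.89 CPM in D1, 4.21, 4.12 and 3.91 in P, 2.07, 2.25 and 2.28 in MBNL KD, and 2.09, 1.86 and 1.57 in RBPMS KD1. It was higher in P (log2 fold change 0.46, SE 0.11, adjusted p = 0.00027), but this call was lost with quantile normalization (0.080, adjusted p = 0.48) and in limma on the authors' normalised values (0.077, adjusted p = 0.51). Both knockdowns lay under D1, by -0.68 in RBPMS KD1 (SE 0.14, adjusted p = 7.9e-05) and -0.42 in MBNL KD (SE 0.12, adjusted p = 0.0035). The knockdowns overlapped each other (adjusted p = 0.10), although without RBPMS KD1 replicate 1 MBNL KD passed as higher (log2 fold change 0.35, adjusted p = 0.041). Lrp2bp, which overlaps Ankrd37 in the RefSeq table, had at most 0.598 CPM.

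**Figure D2:**
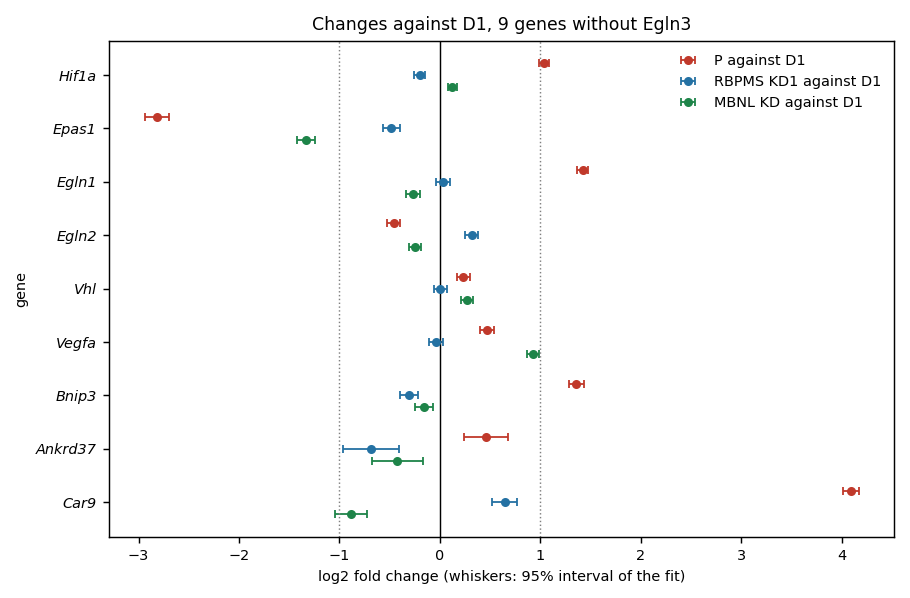
log2 fold change against D1 (x axis) of the 9 genes other than Egln3 (y axis) in P, RBPMS KD1 and MBNL KD, where points are edgeR estimates, whiskers their 95% intervals and dotted lines the fold threshold of 1 in either direction. Car9 stands at 4.09 and Epas1 at -2.82 in P, while in the knockdowns Epas1 in MBNL KD, at -1.33, lies beyond a dotted line.

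Counted over the 9 genes other than Egln3, the comparison of P with D1 gave 7 higher and 2 lower at an adjusted p under 0.05, where 77.9% of all 16814 tested genes passed that test, 40.4% higher and 37.6% lower. Past the fold threshold as well were 5 of the 9, Hif1a, Egln1, Bnip3 and Car9 higher and Epas1 lower, against 27.6% of all genes, 16.4% higher and 11.2% lower. Their median log2 fold change was 0.47, beside 0.020 over all genes tested. In RBPMS KD1, 6 of 9 passed the test, 2 higher and 4 lower, where 59.1% of all genes did, 29.5% in each direction. None, 0 of 9, passed the fold threshold in edgeR, compared with 4.68% of all genes, and DESeq2 and limma also gave 0. The 6 genes with an unadjusted p under 0.05 were the same 6 that passed the adjusted test. In MBNL KD, 9 of 9 passed the test, 3 higher and 6 lower, against 67.5% of all genes, 33.8% higher and 33.7% lower, and 1 passed the fold threshold, where 10.2% did. The median log2 fold change was -0.042 in RBPMS KD1 and -0.25 in MBNL KD, beside 0.0043 and 0.0099 over all genes.

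Comparisons without the D1 libraries were made to place the knockdowns beside P. Egln3 was left out of these counts too. Between P and RBPMS KD1, 6 of the other 9 genes passed both thresholds, against 29.1% of all genes. Between P and MBNL KD it was 4 of 9 against 32.9%. Between the knockdowns themselves 1 of the 9 genes tested, Car9, passed both, against 11.9% of all genes. For Hif1a, Egln1, Bnip3, Ankrd37 and Car9, P lay above every knockdown library. Of all genes tested, 6839 of 16899 passed the test as higher in P against RBPMS KD1, and 7033 of 16973 against MBNL KD. The share of all genes whose libraries did not overlap was not counted.

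The other parts of the HIF machinery were looked up in lists of genes chosen by known role, with earlier results of these data known. Of 6 further subunits and coactivators 5 were tested, and in P 4 were lower and 1 was higher, where 37.6% and 40.4% of all genes were. Arnt2, a partner subunit related to Arnt, fell from 26.7 ± 2.12 CPM in D1 to 4.68 ± 0.311 in P (SD, n = 3), a log2 fold change of -2.52 (SE 0.065, adjusted p = 7.0e-27). In each knockdown 4 of the 5 were lower and the other did not pass the test, where 29.5% of all genes were lower in RBPMS KD1 and 33.7% in MBNL KD. Of 10 genes of HIF hydroxylation and turnover, 8 were lower in P and the other 2 did not pass, where 77.9% of all genes passed and 37.6% were lower. Among them P4htm, a transmembrane prolyl hydroxylase, passed the fold threshold, from 5.66 ± 0.374 to 1.49 ± 0.0575 CPM (log2 fold change -1.93, adjusted p = 3.2e-17). In RBPMS KD1 5 of these 10 were higher and 2 lower, and in MBNL KD 4 were higher and 4 lower, where 59.1% and 67.5% of all genes passed the test in either direction. The median log2 fold change of the 10 was -0.26 in P, 0.048 in RBPMS KD1 and 0.076 in MBNL KD.

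A list of 33 other known HIF targets, also chosen with earlier results known, moved up in P more often than down. There 24 were higher and 8 lower at an adjusted p under 0.05, where 40.4% and 37.6% of all genes were. Past the fold threshold 15 rose and 2 fell, 45.5% and 6.06% of the 33, where the shares of all genes were 16.4% and 11.2%. The median log2 fold change was 0.90, beside 0.020 over all genes, and was the same with Igfbp3, which had 0 counts in D1, placed at its bound of at least 16.8-fold. Among genes with a mean of at least 100 scaled counts in P, the largest rises were in Stc2, a secreted glycoprotein, from 0.0614 ± 0.0130 to 6.77 ± 0.0594 CPM, in the carbonic anhydrase Car12, from 0.215 ± 0.0483 to 10.6 ± 1.42, in the lactate exporter Slc16a3, from 0.722 ± 0.0949 to 7.09 ± 0.628, and in the mitochondrial adenylate kinase Ak4, from 13.1 ± 0.269 to 90.1 ± 5.30 (SD, n = 3). Each passed the edgeR test, with log2 fold changes of 6.75, 5.61, 3.29 and 2.78 and a largest adjusted p of 3.7e-22. The list was not uniform. Plod2, a collagen lysyl hydroxylase, fell from 2897 ± 54.7 to 1092 ± 8.18 CPM (log2 fold change -1.41, adjusted p = 2.1e-32), and Angptl4, a lipase inhibitor, from 3.98 ± 0.102 to 1.60 ± 0.135 (-1.32, adjusted p = 4.4e-12). The glucose transporter Slc2a1, named here after its values were seen, also fell, from 82.9 ± 2.05 to 45.0 ± 1.68 CPM (-0.88, adjusted p = 2.5e-22).

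In the knockdowns genes of this list moved in both directions. In RBPMS KD1 31 of the 33 were tested, 13 higher and 17 lower, where 29.5% of all genes were in each direction, with a median log2 fold change of -0.24. Past the fold threshold were 3 higher and 4 lower, 9.68% and 12.9% of those tested, against 3.06% and 1.62% of all genes. The rises were in Adm, a vasodilator peptide, from 0.918 ± 0.209 to 2.46 ± 0.458 CPM, in Angptl4 to 9.32 ± 0.411 and in the collagen prolyl hydroxylase P4ha2 from 126 ± 3.08 to 292 ± 8.69 (adjusted p = 5.7e-08, 2.9e-14 and 8.5e-24). Plod2 fell there to 1346 ± 29.8 CPM and the glycolytic aldolase Aldoc from 1.298 ± 0.0900 to 0.526 ± 0.0823 (adjusted p = 8.5e-24 and 4.7e-06). In MBNL KD 32 were tested, 9 higher and 15 lower, where 33.8% and 33.7% of all genes were, with a median of -0.085 and 3 past the fold threshold in each direction, 9.38% of those tested, against 6.10% of all genes higher and 4.14% lower. The vasoconstrictor Edn1 rose from 1.34 ± 0.0979 to 2.82 ± 0.594 CPM (adjusted p = 3.4e-07). Stc2 rose from 0.0614 ± 0.0130 to 0.593 ± 0.0770 CPM, a low level in both groups (log2 fold change 3.24, SE 0.40, adjusted p = 2.5e-08). That comparison was chosen after its values were seen. Fam162a, a mitochondrial protein of hypoxic cells, fell from 52.6 ± 2.75 to 13.5 ± 0.625 CPM, and Aldoc fell to 0.359 ± 0.0466 (adjusted p = 2.7e-25 and 1.5e-08).

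**Figure D3:**
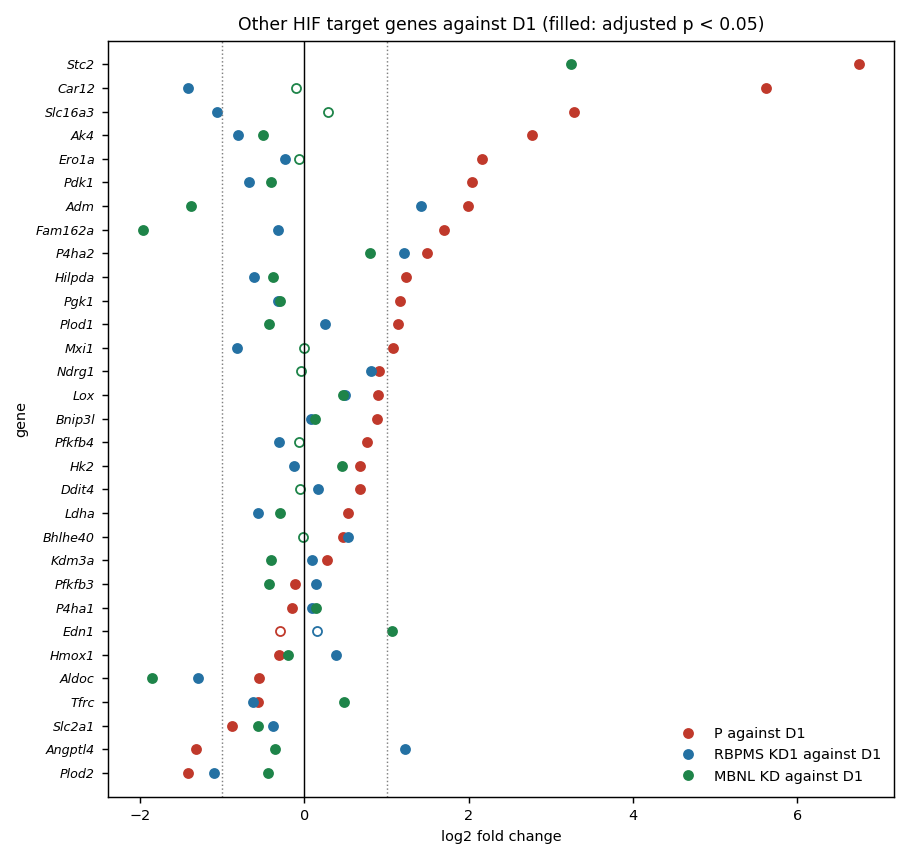
log2 fold change against D1 (x axis) of 31 other HIF target genes (y axis, ordered by their value in P) in P, RBPMS KD1 and MBNL KD, filled where the adjusted p was under 0.05 and open where not, with dotted lines at the fold threshold. Igfbp3 is left out because D1 had 0 counts, 1 further gene of the list is not shown, and most points of P lie right of 0 while those of both knockdowns lie on either side of it.

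Of the tested VEGF family, more genes were lower than higher in P, where Vegfa was higher. Of 9 further VEGF ligands and receptors 7 were tested, of which 2 were higher and 5 lower in P, where 40.4% and 37.6% of all genes were. The lymphatic growth factor Vegfd fell from 12.4 ± 1.67 to 2.47 ± 0.257 CPM, Vegfc from 52.1 ± 0.897 to 16.2 ± 0.567 and the placental growth factor Pgf from 33.0 ± 2.43 to 8.29 ± 0.396 (SD, n = 3). Their log2 fold changes lay between -2.33 and -1.69, with a largest adjusted p of 2.5e-21. The coreceptors changed in opposite directions, Nrp1 from 287 ± 2.63 to 78.8 ± 0.518 CPM (log2 fold change -1.87, adjusted p = 8.3e-35) and Nrp2 from 36.2 ± 4.75 to 275 ± 12.03 (2.92, adjusted p = 2.5e-32). In MBNL KD, where Vegfa was highest, 3 of the 7 were higher and 1 lower, where 67.5% of all genes passed in either direction. The lower gene was Nrp1, at 139 ± 4.76 CPM (log2 fold change -1.04, adjusted p = 3.2e-24). In RBPMS KD1 3 were higher and 2 lower, where 59.1% of all genes passed, with Vegfb at -0.55 (SE 0.046, adjusted p = 2.3e-11) and the receptor Flt1 at 0.54 (SE 0.042, adjusted p = 5.0e-12), both named after their values were seen.

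The genes whose levels followed those of the most variable members were found by the correlation of log2(CPM + 1) over the 12 libraries among 17511 genes, which mostly reflects the differences between the 4 groups. For Egln3 these were Hormad1, Bace2 and Adad2 (r = 1.00 for each), and 672 genes had a correlation above 0.99 with it. Egln3 was detected only in P and its D1 values chose it, so a correlation near 1 is given in advance for other genes detected only in P. Hormad1 and Bace2 had 0 counts in all 9 libraries outside P. For Car9 they were Fzd4, Eno3 and Hivep2 (r = 0.998, 0.998 and 0.997), and Eno3, a glycolytic enolase, had 258 ± 4.53 CPM in P, against 59.6 ± 0.623 in D1, 46.7 ± 0.599 in MBNL KD and 81.0 ± 0.315 in RBPMS KD1 (SD, n = 3). For Epas1 they were Pimreg, Hsd3b1 and Ccne1 (r = 0.997, 0.996 and 0.996), and Hsd3b1, a steroid dehydrogenase, had 17.6 ± 1.05 CPM in P, against 472 ± 16.2 in D1, 108 ± 2.61 in MBNL KD and 333 ± 5.04 in RBPMS KD1.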

How the data were processed

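Poly(A) RNA of 12 libraries of rat PAC1 cells was analysed from counts per gene symbol. The deposited counts were made by the authors, who subsampled reads to equal depth with seqtk, aligned them to mRatBN7.2 (STAR 2.7.11b in the submitters' processing notes) and ran featureCounts on RefSeq genes, with no scaling of the counts. How strand and mates were handled in counting is not given in the sources used here. A second deposited table, of normalised signal values, was made by the authors through noise correction and quantile normalization, and served as an alternative. All lists and members were chosen with earlier results of these data known.

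Each pair of groups was fitted on its 6 libraries in R 4.3.3 with edgeR 4.0.16 (filterByExpr, TMM, quasi-likelihood F test, Benjamini-Hochberg adjustment over all genes tested), without a replicate block. Genes passed the test at an adjusted p under 0.05, and the fold threshold at an absolute log2 fold change above 1. SE was taken as the absolute log2 fold change over the root of the F statistic. An exact permutation test of 3 against 3 libraries cannot go below 0.1, and p-values measure the spread between cultures of 1 cell line. The plan counted Egln3 in the comparisons between P and the knockdowns, but it was left out of every count given because its level chose it. Limits from counts cover counting error only.

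As alternatives, size factors of DESeq2 or quantile normalization replaced TMM, the filter was dropped or set to at least 10 counts in every library, the test was that of DESeq2 1.42.0 or of limma 3.58.1 on log2 of the normalised values, counts were divided by 2, all 12 libraries entered 1 fit, the replicate number was a block, or each library was left out in turn. On simulated data for P against D1 with 15734 genes tested, 200 of 200 genes changed 3-fold were called, and 1 other. The genes named are the 10 members, the siRNA targets, from each list up to 4 genes per direction past both thresholds against D1, where the higher group averaged 100 or more scaled counts, and the 3 genes most correlated with each of the 3 members of widest range. A few further genes, chosen after their values were seen, are marked so where they appear. Values of 1 gene of the HIF target list are not reported here, although the list counts include it.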

Additional observations from a re-analysis of the deposited data

How the results depend on the processing

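Of 810 log2 fold changes of single genes under the alternatives, 792 kept their direction and their side of the adjusted p threshold. The 4 that changed sign all concerned Vhl in RBPMS KD1 against D1, which was -0.0013 without the filter on low counts and ranged from -0.021 to 0.016 over the fits that left out 1 library each. The number of members past both thresholds stayed within 1.5 times its value in 86 of 90 alternatives. For MBNL KD against D1 it went from 1 to 2 with quantile normalization and in limma on the normalised values, where Vegfa passed a log2 fold change of 1. For MBNL KD against RBPMS KD1 it went from 1 to 2 in these same alternatives, again through Vegfa. Leaving out each library gave 5 to 5, 0 to 0 and 1 to 1 members against D1 in P, RBPMS KD1 and MBNL KD, and 6 to 6, 4 to 4 and 1 to 1 for P against RBPMS KD1, P against MBNL KD and MBNL KD against RBPMS KD1. All these counts leave out Egln3.

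Replicate numbers are shared between the groups, but the deviations of same-numbered libraries correlated by between -0.021 and 0.058, and 15 of 36 library and group pairs correlated best with their own number. Blocking on the replicate number, the members past both thresholds were again 5, 0, 1, 6, 4 and 1, and the block changed no call of a member.

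Over all genes quantile normalization moved the share of higher calls from 59.4% to 46.1% in P, from 65.4% to 53.2% in RBPMS KD1 and from 59.6% to 50.1% in MBNL KD against D1. Requiring 10 counts in every library took the calls from 4641 to 2933 in P against D1 and from 4914 to 3154 in P against RBPMS KD1. In limma on the normalised values they went from 745 to 209 in RBPMS KD1 and from 1643 to 784 in MBNL KD against D1, and from 1920 to 1050 between the knockdowns. At this depth Egln3 was not detectable outside P.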

Other observations

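Of 7 mitophagy receptors and regulators other than Bnip3, 4 were higher and 1 lower in P against D1 in the edgeR test, where 77.9% of all genes passed in either direction. The largest change was that of Bnip3l, the paralog of Bnip3, at 0.88 on the log2 scale (SE 0.027, adjusted p = 7.0e-25). The gene that was lower was Pink1, a mitochondrial kinase, at -0.16 (adjusted p = 0.0062). In RBPMS KD1 3 were higher and 2 lower, where 59.1% of all genes passed, and Fundc1, a receptor of hypoxic mitophagy, had the largest change at -0.47 (SE 0.048, adjusted p = 1.4e-09). Bnip3l, Pink1 and Fundc1 were chosen after their values were seen.

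Of 15 carbonic anhydrases other than Car9, 6 were tested in P against D1, where 3 were higher and 2 lower and 77.9% of all genes passed in either direction. Next to Car12, described with the HIF targets, Car11, a relative without catalytic activity, fell from 10.95 ± 0.741 to 4.91 ± 0.333 CPM in P (SD, n = 3), by -1.16 on the log2 scale (SE 0.075, adjusted p = 1.2e-15 in edgeR's test). In RBPMS KD1, where Car9 rose, Car12 went from 0.215 ± 0.0483 to 0.0794 ± 0.0109 CPM, a low level in both groups (log2 fold change -1.42, SE 0.46, adjusted p = 0.0096), a comparison chosen after its values were seen.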
